A study of Mus musculus with 45 samples.

Results

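The transcripts described here were all those in the boundary files with a length, taken as transcript end minus transcript start, of at least 100 kb and under 200 kb. They were 4670 of the 122968 transcripts listed, came from 2127 genes and had a median length of 131.2 kb. In GENCODE M21 on GRCm38, 3370 of them were protein-coding and 174 were long intergenic non-coding RNAs (lincRNAs), and 17 had no entry. There were 4227 start sites. A single member came from each of 1024 genes, and Tcf4 had the most, with 18. Isoforms of a gene that share a start site mostly carried the same boundary, as 90.8% of 11092 boundary pairs from a shared start site were equal, against 41.86% of 50851 pairs from other start sites of the same gene. Isoforms were therefore not counted as replicates, and groups were compared over samples.

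The boundary of a transcript is how far from its start site the wave of new transcription had come, and was measured by 4sU-DRB-seq in mouse embryonic stem cells. The elongation inhibitor DRB was given for 4 hours and washed out, and RNA labelled with 4-thiouridine (4sU) was sequenced 5, 15 or 30 min later. WT/WT cells had 2 wild-type alleles of Polr2a, which encodes the largest subunit of RNA polymerase II. WT/slow cells had 1 wild-type allele and 1 allele with the R749H substitution, and slow/slow cells had the substitution on both alleles. Each of the 9 groups of genotype and time had 3 biological replicates, which gave 27 samples, and the other 18 of the 45 samples of the series were not analysed here. The slow/slow line was made by targeting the remaining wild-type allele of the WT/slow line. Differences between lines that came with targeting and cloning thus cannot be told apart from the effect of the alleles. WT/slow and slow/slow were each compared with the same WT/WT samples, so the 2 comparisons share their controls.

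RNA polymerase II pauses soon after initiation and needs the kinase activity of P-TEFb to go on into the gene body. DRB blocks that kinase, and its removal releases polymerases together, so that the front of the wave can be followed along the gene with time. A long gene keeps the front inside the gene for longer than a short gene does.

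Sequences are shown for 3 members whose boundaries are described further on. Of the named members, Ammecr1 had the WT/WT front farthest from its start site at 15 min. Igsf11 had a front near the start site in WT/WT and far from it in slow/slow, and the front of Slc22a27 stayed near the start site in every genotype. Each run has 100 bases of GRCm38, is written 5′ to 3′ on the transcribed strand and ends with a capital letter. At a start site that letter is the base at the listed start of the transcript, which on the minus strand is the first transcribed base. At a front it is the base at the mean boundary of the genotype at 15 min, rounded to 100 bases. Listed starts on the plus strand count from 0, so the last letters of the Igsf11 runs may lie 1 base early. The start site of Ammecr1 (ENSMUST00000041317) was taken from chrX:142966728-142966827, minus strand, with 81.0% GC and 17 CpG pairs.
Ammecr1 start site: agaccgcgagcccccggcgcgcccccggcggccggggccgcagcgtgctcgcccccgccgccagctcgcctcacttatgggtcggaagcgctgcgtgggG
The WT/WT front of Ammecr1, 56.2 kb from the start site, lay in intron 2 at chrX:142910529-142910628 and had 21% GC and 0 CpG pairs.
Ammecr1 WT/WT front: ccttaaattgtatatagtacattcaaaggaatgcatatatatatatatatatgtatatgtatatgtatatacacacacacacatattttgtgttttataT
The start site of Igsf11 (ENSMUST00000023478) was taken from chr16:38902217-38902316, plus strand, with 73.0% GC and 11 CpG pairs.
Igsf11 start site: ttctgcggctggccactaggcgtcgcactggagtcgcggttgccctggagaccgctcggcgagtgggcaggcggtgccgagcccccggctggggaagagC
In WT/WT the front of Igsf11 was 5.6 kb from the start site, in intron 1 at chr16:38907816-38907915, with 23.0% GC and 0 CpG pairs.
Igsf11 WT/WT front: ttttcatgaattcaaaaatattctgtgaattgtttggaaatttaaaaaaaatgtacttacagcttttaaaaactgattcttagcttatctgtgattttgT
In slow/slow it was 34.8 kb from the start site, in the same intron at chr16:38937016-38937115, with 52.0% GC and 0 CpG pairs.
Igsf11 slow/slow front: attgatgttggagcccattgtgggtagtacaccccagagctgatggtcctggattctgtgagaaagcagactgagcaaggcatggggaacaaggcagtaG
The start site of Slc22a27 (ENSMUST00000075619) was taken from chr19:7966027-7966126, minus strand, with 47.0% GC and 1 CpG pair.
Slc22a27 start site: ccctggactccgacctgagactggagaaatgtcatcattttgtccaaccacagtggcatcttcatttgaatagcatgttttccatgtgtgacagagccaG

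Boundaries were deposited in steps of 100 bases, and the sequencing depth behind them is unknown because the files hold distances and no counts. A boundary was called in at least 1 sample for 4460 members, in none for 210 and in all 27 samples for 3163. The 113861 boundaries of the members ran from 0.2 to 59.2 kb, so all stopped short of the 100 kb that every member spans. The single value of 2.5 kb made up 38.42% of them, while the next commonest value, 4.3 kb, made up 0.4505%. The files do not tell whether 2.5 kb is a measured distance or a value set by the boundary caller, so a share at 2.5 kb is read here only as the share of calls with that value. Differences in kb to or from a boundary of 2.5 kb have the same limit. Shares at 2.5 kb are given apart from the medians, which were taken over boundaries other than 2.5 kb.

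Calls numbered 3757 in slow/slow replicate 2 at 30 min and between 4053 and 4377 in the other 26 samples. WT/WT replicate 2 at 15 min stood apart from its group with 42.5% of boundaries at 2.5 kb and a median of 17.0 kb over the rest. WT/WT replicate 2 at 5 min, with a median of 17.5 kb, and WT/slow replicate 2 at 5 min, with a median of 14.4 kb, lay above the other replicates of their groups. The rank correlation of members between replicates ran from 0.1727 in WT/WT at 15 min to 0.6566 in slow/slow at 15 min (Spearman, 27 pairs, each over 3739 to 4312 transcripts that share loci and are not independent). It is given as a description with no test.

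For marker genes only the presence of a boundary can be read, since a distance does not measure expression. Of 10 pluripotency genes, Esrrb, Tfcp2l1 and Tdgf1 had a boundary in all 27 samples, and Esrrb, at 160.5 kb, was itself a member. Pou5f1, Sox2, Klf2 and Dppa5a had none in any sample, and their longest transcripts were 4.755, 2.057, 2.624 and 1.126 kb. Among markers of other cell types, Rbfox3 and Syn1 of neurons, Mbp of glia and Gata6 of endoderm also had a boundary in all 27 samples, whereas Col1a1 and Col1a2 of fibroblasts, Aqp4 of glia, and Sox17 and Afp of endoderm had none. The presence of a boundary thus did not separate the cell types.

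The first comparison asked what part of the called members had a boundary of 2.5 kb in each genotype. At 5 min, shares at 2.5 kb were 22.7%, 19.5% and 19.6% in WT/WT replicates 1 to 3, 22.9%, 21.4% and 25.9% in WT/slow, and 18.9%, 24.9% and 23.5% in slow/slow. The 3 genotypes overlapped. The difference of slow/slow from WT/WT was 1.83 points (exact permutation test, two-sided, p = 0.4), and that of WT/slow was 2.79 points (exact p = 0.2). With 3 samples against 3 the smallest p this test allows is 0.1, so no such difference could pass 0.05, and a p that misses 0.05 does not show that groups are equal.

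At 15 min, shares at 2.5 kb were 28.8%, 42.5% and 23.9% in WT/WT, 31.7%, 24.9% and 22.3% in WT/slow, and 19.99%, 21.7% and 20.7% in slow/slow. All slow/slow samples lay below all WT/WT samples, and WT/slow overlapped WT/WT and lay above slow/slow. The mean was 20.8% ± 0.880 (SD, n = 3) in slow/slow and 31.7% ± 9.63 (SD, n = 3) in WT/WT, a difference of -10.9 points (exact permutation p = 0.1, the smallest possible). WT/slow was lower by 5.39 points than WT/WT (exact p = 0.6). Without WT/WT replicate 2 these differences were -5.49 points for slow/slow and -0.0143 points for WT/slow. At 30 min, shares were 61.9%, 68.3% and 71.0% in WT/WT, 64.5%, 71.0% and 68.9% in WT/slow, and 62.3%, 69.5% and 62.3% in slow/slow. These were the highest shares of all times, and the genotypes overlapped (exact permutation p = 0.7 for slow/slow and 0.6 for WT/slow against WT/WT).

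**Figure D1:**
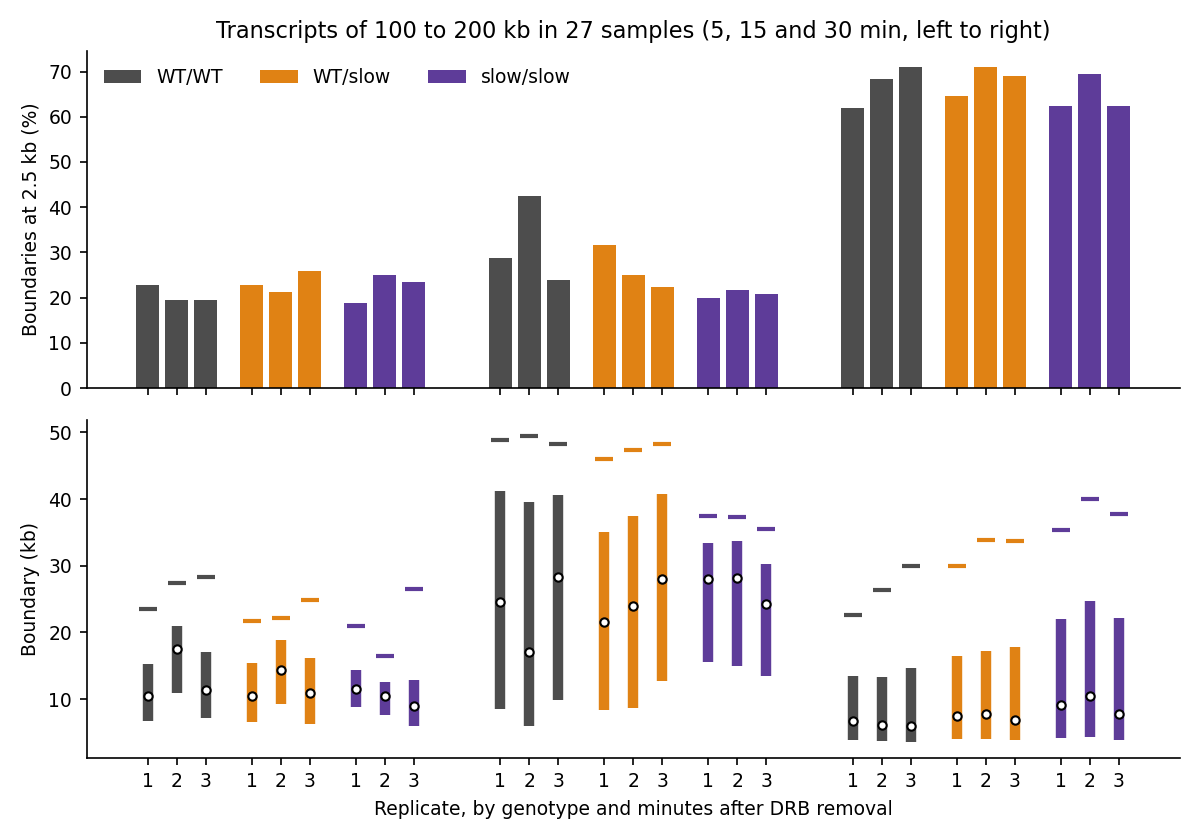
Share of boundaries at 2.5 kb (top, %) and, over the other boundaries, median (circle), quartiles (bar) and 90th percentile (line) in kb, for each of the 27 samples by genotype and time. At 15 min the 3 slow/slow bars end between 30.2 and 33.7 kb and the 3 WT/WT bars between 39.5 and 41.2 kb.

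The second comparison asked how far the fronts of the other members had gone. At 5 min, the median boundary other than 2.5 kb was 10.5, 17.5 and 11.4 kb in WT/WT cells, 10.4, 14.4 and 10.9 kb in WT/slow, and 11.5, 10.4 and 8.9 kb in slow/slow. At 15 min it was 24.6, 17.0 and 28.3 kb in WT/WT cells, 21.5, 24.0 and 28.0 kb in WT/slow, and 28.0, 28.2 and 24.2 kb in slow/slow. At 30 min it was 6.75, 6.1 and 6.0 kb in WT/WT cells, 7.4, 7.7 and 6.8 kb in WT/slow, and 9.1, 10.4 and 7.8 kb in slow/slow. Genotypes overlapped at 5 and 15 min, and at 30 min each WT/slow and slow/slow sample lay above each WT/WT sample. The median of slow/slow differed from that of WT/WT by -2.87 kb at 5 min (exact permutation p = 0.4), 3.5 kb at 15 min (exact p = 0.7) and 2.82 kb at 30 min (exact p = 0.1). That of WT/slow differed by -1.23 kb (exact permutation p = 0.6), 1.2 kb (exact p = 0.9) and 1.02 kb (exact p = 0.1). Without WT/WT replicate 2, the difference of slow/slow was -0.683 kb at 5 min and 0.35 kb at 15 min, and that of WT/slow turned to 0.95 kb and to -1.95 kb. With the mean over members in place of the median, the 15-min differences turned to -0.800 kb for slow/slow and -0.0267 kb for WT/slow. Over all boundaries, with 2.5 kb kept, the median at 15 min was 11.2, 3.8 and 16.2 kb in WT/WT and 22.8, 21.9 and 19.6 kb in slow/slow, so that slow/slow lay above WT/WT by 11.03 kb (exact permutation p = 0.1), or by 7.73 kb without WT/WT replicate 2.

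The far end of the distribution was looked at with measures chosen after the values were seen. At 15 min, the upper quartile of boundaries other than 2.5 kb was 41.2, 39.5 and 40.7 kb in WT/WT cells, 35.1, 37.5 and 40.7 kb in WT/slow, and 33.4, 33.7 and 30.2 kb in slow/slow. All slow/slow samples lay below all WT/WT samples, with means of 32.4 ± 1.94 kb and 40.5 ± 0.871 kb (SD, n = 3), and WT/slow overlapped WT/WT. The difference of slow/slow from WT/WT was -8.03 kb (exact permutation p = 0.1), and at the 90th percentile it was -12.1 kb (exact p = 0.1). Boundaries of 40 kb or more made up 19.3%, 14.0% and 20.5% of calls in WT/WT, 11.9%, 16.1% and 20.6% in WT/slow, and 4.80%, 4.42% and 5.13% in slow/slow. Here slow/slow was lower by 13.1 points than WT/WT, without overlap (exact permutation p = 0.1). At 5 min, the upper quartile was 15.3, 21 and 17.1 kb in WT/WT cells, 15.4, 18.9 and 16.1 kb in WT/slow, and 14.4, 12.6 and 12.9 kb in slow/slow, and slow/slow again lay below WT/WT in every sample (-4.5 kb, exact permutation p = 0.1, or -2.9 kb without WT/WT replicate 2). The other measures of the far end overlapped at 5 min, with -5.04 kb at the 90th percentile (exact permutation p = 0.2) and -0.804 points in the share from 40 kb (exact p = 0.3). At 30 min the order was the opposite, with upper quartiles of 13.4, 13.4 and 14.7 kb in WT/WT cells, 16.4, 17.3 and 17.8 kb in WT/slow, and 21.9, 24.6 and 22.2 kb in slow/slow. All slow/slow samples then lay above all WT/WT samples by 9.12 kb on average, and all WT/slow samples by 3.33 kb (exact permutation p = 0.1 for each). Those 30-min values rest on the minority of members with a boundary other than 2.5 kb. No boundary of a member was over 59.2 kb at any time. The median boundary other than 2.5 kb went from 23.3 kb at 15 min to 6.28 kb at 30 min in WT/WT (mean of 3 samples). It went from 24.5 to 7.3 kb in WT/slow and from 26.8 to 9.1 kb in slow/slow. The 30-min values are therefore not read as fronts that had gone farther in slow/slow.

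**Figure D2:**
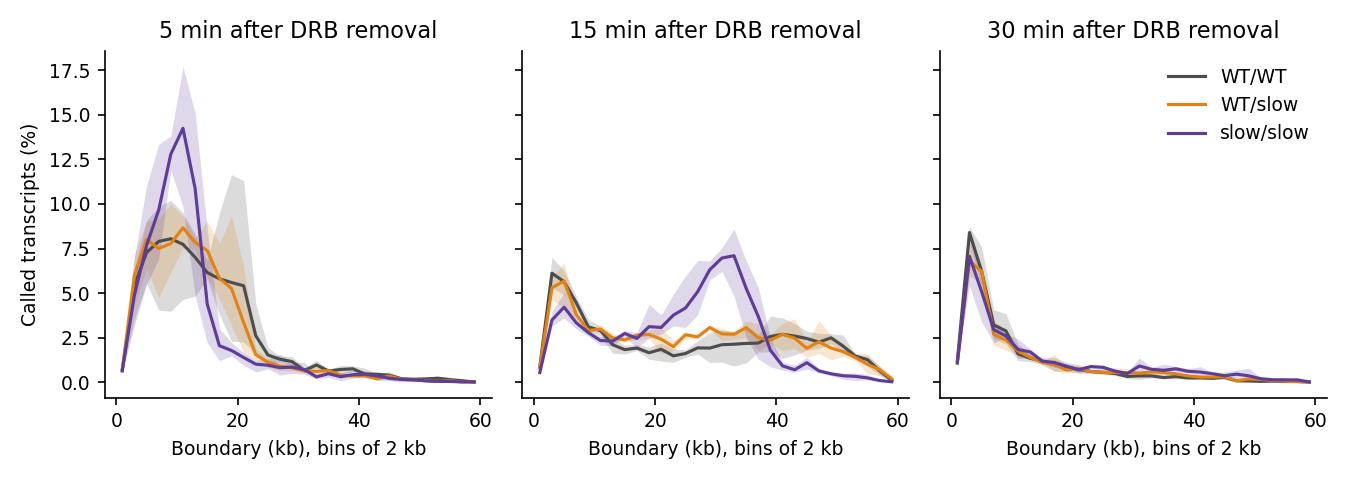
Percent of called transcripts in each 2-kb bin of boundary (kb) at 5, 15 and 30 min, with boundaries of 2.5 kb left out, as the mean of 3 replicates (line) and their lowest and highest values (band). At 15 min the bin of 32 to 34 kb holds 7.10% of slow/slow calls and 2.13% of WT/WT calls.

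Where the boundaries of slow/slow gathered can be read from the counts per 2 kb. At 15 min the bins of 30 to 32 kb and 32 to 34 kb held 6.96% and 7.10% of slow/slow calls, and no replicate fell outside 6.22% to 7.54% and 4.83% to 8.59%. In WT/WT these bins held 2.10% and 2.13%, with replicates from 1.13% to 2.93% and from 0.891% to 2.83%, below slow/slow throughout. From 48 to 50 kb the order was reversed, with 2.48% of calls in WT/WT, 1.91% in WT/slow and 0.463% in slow/slow. At 5 min the slow/slow calls peaked from 10 to 12 kb with 14.3%, against 7.74% in WT/WT and 8.67% in WT/slow, and the slow/slow replicates (9.84% to 17.7%) lay above those of WT/WT (4.64% to 9.50%). From 20 to 22 kb WT/WT had 5.41%, with replicates spread from 2.26% to 11.3%, and slow/slow 1.38%, from 0.951% to 1.65%.

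Progress from 5 to 15 min was followed in the 495 members, of 264 genes, whose boundary was called and other than 2.5 kb in all 18 samples of these times. Their median at 5 min was 11.8, 18.3 and 12.2 kb in WT/WT cells, 10.5, 14.7 and 10.7 kb in WT/slow, and 12.5, 10.4 and 9.6 kb in slow/slow. At 15 min it was 34.5, 36.2 and 34.3 kb in WT/WT cells, 29.5, 34.3 and 34.7 kb in WT/slow, and 30.1, 30.5 and 26.6 kb in slow/slow. At 15 min slow/slow lay below WT/WT in every sample, with 29.1 ± 2.15 kb against 35.0 ± 1.04 kb (SD, n = 3; -5.93 kb, exact permutation p = 0.1), and WT/slow overlapped WT/WT (-2.17 kb, exact p = 0.5). At 5 min slow/slow and WT/WT overlapped (-3.27 kb, exact permutation p = 0.3, or -1.17 kb without WT/WT replicate 2). The median progress over the set was 15.4 kb in WT/WT, where 452 members had a higher mean at 15 min and 43 a lower one, 18.1 kb in WT/slow and 15.5 kb in slow/slow.

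**Figure D3:**
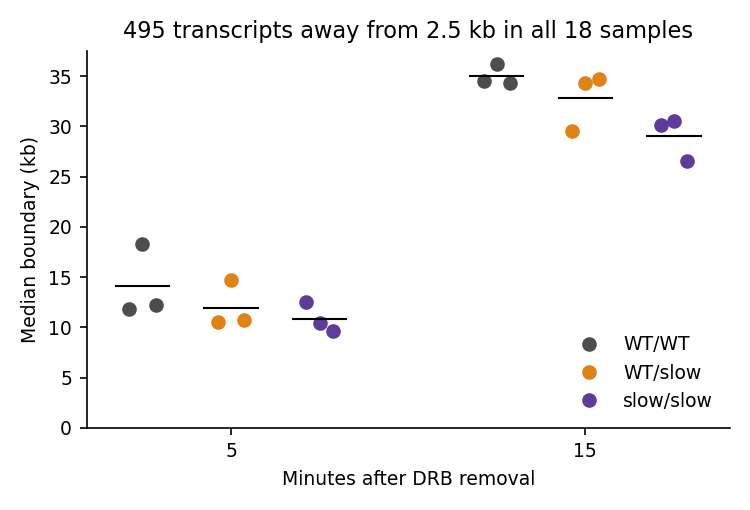
Median boundary (kb) in each sample (points) and mean of 3 replicates (lines) for the 495 transcripts called away from 2.5 kb in all 18 samples at 5 and 15 min. By 15 min the slow/slow points lie between 26.6 and 30.5 kb and the WT/WT points between 34.3 and 36.2 kb.

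Member by member, all 3 slow/slow values at 15 min were below all 3 WT/WT values in 110 of these 495 (22.2%), against 18.8% of the 1745 transcripts of any length that met the same condition. They were above in 22 (4.44%; 7.34% over any length). At 5 min, 84 members lay below (17.0%; 16.6% over any length) and 13 above (2.63%; 2.01%). For WT/slow at 15 min, 50 members lay below WT/WT (10.1%; 7.68% over any length) and 30 above (6.06%; 8.48%), and at 5 min 58 lay below (11.7%; 8.54%) and 13 above (2.63%; 2.41%). A share near that over all lengths is not a result about the members. With the longest member of each gene alone, 214 transcripts were left, of which 48 lay below (22.4%; 18.1% over any length with 1 transcript per gene) and 13 above (6.08%; 7.52%) in slow/slow at 15 min.

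Progress of single members was tested with limma over the whole table (24589 transcripts, 3399 of them members, adjusted p under 0.05). In WT/WT, 229 members rose from 5 to 15 min (6.74% of members; 3.38% of all transcripts tested) and 11 fell (0.324%; 6.01%). In WT/slow, 309 rose (9.09%; 5.24%) and 11 fell (0.324%; 6.11%). In slow/slow, 206 rose (6.06%; 6.03%) and 1, Mtm1, fell (0.0294%; 4.19%). The 11 members that fell in WT/WT belonged to Ankrd28, Arhgap21, Gm28539, Kif4, Ola1, Rreb1, Sipa1l3, Ubr4 and Zfp652. On the log2 scale WT/WT had 167 rises (4.91%; 2.62%) and 60 falls (1.77%; 11.7%), WT/slow 193 (5.68%; 3.55%) and 27 (0.794%; 9.57%), and slow/slow 180 (5.30%; 4.06%) and 9 (0.265%; 8.26%). With boundaries of 2.5 kb set to missing, 557 of 1998 members rose in WT/WT (27.9%; 20.2%), 610 in WT/slow (30.5%; 24.8%) and 538 in slow/slow (26.9%; 24.9%). With the trend and robust options of eBayes 112 rose in slow/slow (3.30%; 3.36%) and 1 fell (0.0294%; 2.22%). Counts with a library left out are given here and below to show their stability, and carry no share over all transcripts. The WT/slow counts were 193 and 10 without WT/slow replicate 2, and 149 and 14 without WT/slow replicate 3. The slow/slow counts were 99 and 3 without slow/slow replicate 1, 62 and 3 without replicate 2, 104 and 1 without replicate 3, and 339 and 3 without WT/WT replicate 2.

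Whether progress itself differed between genotypes was tested as the difference of the 2 differences. Against WT/WT, progress in slow/slow was greater for 40 members (1.18%; 2.93% of all transcripts tested) and smaller for 10 (0.294%; 0.207%), the latter from Fat1, Ino80d, Lekr1, Mbnl1, Umad1 and Zfp704. Of the 40, WT/WT had a boundary of 2.5 kb at 15 min in at least 1 replicate for 29 (72.5%) and in all 3 for 10 (25%), against 57.7% and 8.24% of the members tested. Among the 10 with smaller progress, 9 had no boundary of 2.5 kb in either genotype at 15 min, against 31.7% of the members tested. Of the 10, 0 had a WT/WT replicate at 2.5 kb at 15 min, and of the 40, 0 had a slow/slow replicate there. These shares thus follow in part from the direction of the call. WT/slow had greater progress than WT/WT for 14 members (0.412%; 0.492%), from Ankrd28, Kif4, Lims1, Runx1t1, Stk32a, Supt3, Ubr4 and Vps53, and smaller progress for 4 (0.118%; 0.0691%), from Fgfr2, Ino80d, Sptb and Zfp704. These were 8 (0.235%; 0.533%) and 3 (0.0883%; 0.0447%) on the log2 scale, and 0 and 1 (0.0294%; 0.0122%) with the trend and robust options of eBayes. With those options 0.0163% of all transcripts passed, both directions together. Slow/slow had greater progress than WT/slow for 14 (0.412%; 1.26%) and smaller progress for 3 (0.0883%; 0.126%), all isoforms of Fat1, which were singled out after the values were seen. On the log2 scale slow/slow against WT/WT gave 44 (1.29%; 2.66%) and 3 (0.0883%; 0.138%), and against WT/slow 13 (0.382%; 0.883%) and 0 (0%; 0.0895%). With boundaries of 2.5 kb set to missing slow/slow against WT/WT gave 14 (0.701%; 1.37%) and 1 (0.0501%; 0.156%), and against WT/slow 0 and 0. For the latter, 0.0120% of all transcripts passed, both directions together. With the trend and robust options slow/slow against WT/WT gave 23 (0.677%; 1.93%) and 1 (0.0294%; 0.122%).

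These counts moved with single libraries. For slow/slow against WT/WT they were 25 and 6 without WT/WT replicate 2, 75 and 23 without WT/WT replicate 3, 72 and 16 without WT/slow replicate 1, 64 and 13 without WT/slow replicate 3, and 23 and 5 without slow/slow replicate 2. For WT/slow against WT/WT they were 10 and 19 without WT/WT replicate 2, 33 and 12 without WT/WT replicate 3, 40 and 4 without WT/slow replicate 1, 7 and 4 without slow/slow replicate 1, and 6 and 3 without slow/slow replicate 2. For slow/slow against WT/slow they were 27 and 4 without WT/WT replicate 2, 27 and 6 without WT/slow replicate 3, and 22 and 4 without slow/slow replicate 1.

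At a single time, members were compared between genotypes in the same limma fit. At 5 min no member was higher in slow/slow than in WT/WT in limma (0 of 3399; 0.0732% of all transcripts tested); at unadjusted p under 0.05, 43 were higher (1.27%; 2.08%). Those lower were 6 (0.177%; 0.142%), all isoforms of Vps53, which encodes a subunit of the GARP tethering complex and was singled out after the values were seen. WT/slow likewise had 0 higher in limma (0.0285%), with 63 at unadjusted p under 0.05 (1.85%; 2.19%), and 6 lower (0.177%; 0.110%), again all isoforms of Vps53. At unadjusted p under 0.05, 119 were lower in slow/slow (3.50%; 4.63%) and 99 in WT/slow (2.91%; 3.16%). Chance alone would give 2.5% in 1 direction, which the shares higher did not reach and those lower exceeded, and all 4 shares of the members were under those of all transcripts. On the log2 scale the counts higher and lower were 3 (0.0883%; 0.122%) and 10 (0.294%; 0.179%) for slow/slow, and 3 (0.0883%; 0.0732%) and 4 (0.118%; 0.134%) for WT/slow. For slow/slow they were 4 and 10 without WT/WT replicate 1, 0 and 11 without WT/WT replicate 2, 1 and 14 without WT/WT replicate 3, and 0 and 11 without WT/slow replicate 1. For WT/slow they were 3 and 11 without WT/WT replicate 2, 1 and 12 without WT/WT replicate 3, and 8 and 6 without WT/slow replicate 2.

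At 15 min, 98 members of 64 genes were higher in slow/slow than in WT/WT (2.88%; 5.83% of all transcripts tested) and 99 of 54 genes were lower (2.91%; 1.35%). Of the 98, 86 (87.8%) had a boundary of 2.5 kb in at least 1 WT/WT replicate at 15 min and 21 (21.4%) in all 3, against 1961 (57.7%) and 280 (8.24%) of the 3399 members tested. Of the 99 lower members, 63 (63.6%) had no boundary at 2.5 kb in either genotype, against 31.7% of the members tested. The other 36 (36.4%) had at least 1 slow/slow replicate there, a share near the 37.04% of the members tested. Of the 99, 0 had a WT/WT replicate at 2.5 kb, and of the 98, 0 had a slow/slow replicate there. The shares at 2.5 kb and at neither thus follow in part from the direction of the call. The same limit holds for the WT/slow shares given below. With boundaries of 2.5 kb set to missing, 40 of the 1998 members then tested were higher (2%; 4.53% of the 8342 transcripts tested) and 114 lower (5.71%; 4.22%). With log2 values 131 were higher (3.85%; 6.42%) and 42 lower (1.24%; 0.903%). The counts were 74 and 38 without slow/slow replicate 2, and 79 and 32 without slow/slow replicate 3. In WT/slow, 57 members were higher than in WT/WT (1.68%; 1.76%) and 32 lower (0.941%; 0.610%), of which 43 (75.4%) and 19 (59.4%) had a boundary of 2.5 kb in at least 1 replicate of the genotype with the shorter boundary, against 57.7% of the members tested in WT/WT and 48.5% in WT/slow. With boundaries of 2.5 kb set to missing these were 49 (2.45%; 3.48%) and 51 (2.55%; 2.09%). They were 47 and 105 without WT/WT replicate 2, 99 and 53 without WT/WT replicate 3, and 107 and 39 without WT/slow replicate 1.

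At 30 min, 33 of the 2855 members tested were higher in slow/slow than in WT/WT (1.16%; 0.694% of the 28401 transcripts tested) and 9 were lower (0.315%; 0.433%). The lower ones came from Ablim1, Bicd1, Chn1, Fam81b, Gm43948, Rin2, Stox2 and Tbc1d1. With boundaries of 2.5 kb set to missing there were 6 higher (1.63%; 1.84%) and 6 lower (1.63%; 0.952%). The counts were 54 (1.89%; 1.01%) and 13 (0.455%; 0.528%) on the log2 scale, 1 (0.0350%; 0.00704%) and 0 with the trend and robust options of eBayes, and 3 (0.292%; 0.402%) and 1 (0.0974%; 0.213%) of 1027 with 1 transcript per gene. With the trend and robust options 0.0563% of all transcripts passed, both directions together. Without slow/slow replicate 2 the counts were 85 and 7, and without slow/slow replicate 3 they were 65 and 7.

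Ammecr1 (ENSMUST00000041317, chrX:142851146-142966728, minus strand, 115.6 kb) had the longest WT/WT boundary of the named members. At 15 min it was 55.7, 56.2 and 56.6 kb in WT/WT cells, 45.7, 29.4 and 45.6 kb in WT/slow, and 32.2, 29.0 and 32.2 kb in slow/slow. WT/WT lay above both other genotypes, which overlapped each other. The gene was named for its long WT/WT boundary, a choice that favours lower values in the other genotypes. Slow/slow was lower by 25.03 kb than WT/WT (limma adjusted p = 0.000581), a difference that held with any 1 library left out. WT/slow was lower by 15.9 kb (limma adjusted p = 0.0303), but this was not past 0.05 with any 1 of the WT/WT or slow/slow replicates left out (adjusted p from 0.0584 to 0.1002). At 5 min Ammecr1 stood at 16.0, 18.9 and 14.0 kb in WT/WT cells, 13.5, 18.7 and 10.3 kb in WT/slow, and 10.3, 7.7 and 6.8 kb in slow/slow, where slow/slow lay below WT/WT without passing the test. Its progress was 39.9 kb in WT/WT, 26.1 kb in WT/slow and 22.9 kb in slow/slow, and the difference of slow/slow from WT/WT in progress, -17.0 kb, was not past the test (limma adjusted p = 0.101), except without WT/slow replicate 2 (adjusted p = 0.00149). That difference turned to 0.138 on the log2 scale (limma adjusted p = 0.951).

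Crim1, Inpp5a, Adam22 and Umad1 had the same order of means. Crim1 and Adam22 were named among members whose slow/slow values at 15 min all lay below those of WT/WT. Their lack of overlap between these genotypes is therefore not a result. Adam22 and Umad1 were named for long WT/WT boundaries at 15 min, which favours lower values in the other genotypes. The p of Crim1, Adam22 and Umad1 at 15 min have the same limit. Crim1 (ENSMUST00000112498, chr17:78200248-78376592, plus strand), which encodes a transmembrane protein that binds bone morphogenetic proteins, was at 45.4, 50.5 and 47.4 kb in WT/WT cells, 39.7, 40.4 and 38.3 kb in WT/slow, and 26.7, 30.7 and 14.3 kb in slow/slow at 15 min. No values overlapped between its genotypes, and slow/slow was lower by 23.9 kb than WT/WT (limma adjusted p = 0.0105). Inpp5a (ENSMUST00000106098, chr7:139389109-139579652, plus strand), an inositol polyphosphate phosphatase gene, was at 54.7, 44.6 and 44.6 kb in WT/WT cells, 29.2, 39.2 and 37.3 kb in WT/slow, and 31.3, 32.5 and 25.4 kb in slow/slow, all within intron 1. Both other genotypes lay below WT/WT and overlapped each other, and slow/slow was lower by 18.2 kb than WT/WT (limma adjusted p = 0.00421). Both differences held with any 1 library left out.

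Adam22 (ENSMUST00000138652, chr5:8223827-8368134, minus strand), whose product is a membrane receptor of the ADAM family, was at 50.7, 55.4 and 50.7 kb in WT/WT cells, 45, 45.9 and 43.2 kb in WT/slow, and 32.6, 30.8 and 19.9 kb in slow/slow at 15 min. The 3 genotypes were apart, and slow/slow was lower by 24.5 kb than WT/WT (limma adjusted p = 0.0169). That difference was not past 0.05 without WT/WT replicate 1 (limma adjusted p = 0.0523), WT/WT replicate 2 (0.0820) or slow/slow replicate 3 (0.0869). Umad1 (ENSMUST00000162034, chr6:8259382-8428764, plus strand) was at 48.6, 53.6 and 53.1 kb in WT/WT cells, 43.7, 39.7 and 42.9 kb in WT/slow, and 30.8, 26.6 and 39.6 kb in slow/slow. WT/WT was the highest in every replicate, and slow/slow was lower by 19.4 kb (limma adjusted p = 0.00894), but not past 0.05 without slow/slow replicate 2 (adjusted p = 0.0638).

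WT/slow did not lie between the other genotypes in every member. Of the genes that follow, Ino80d, Chn2 and Gm26786 were named for the smallest p for less progress in slow/slow. That choice favours lower slow/slow values at 15 min. Rasa3 (ENSMUST00000117551, chr8:13566948-13677603, minus strand), a Ras GTPase-activating protein gene, was at 44.9, 39.4 and 43.2 kb in WT/WT cells, 16.3, 23.2 and 25.4 kb in WT/slow, and 35.1, 31.0 and 25.4 kb in slow/slow at 15 min. WT/WT lay above both, and WT/slow was lower by 20.9 kb than WT/WT (limma adjusted p = 0.00384, held with any 1 library left out). Slow/slow was lower by 12 kb (limma adjusted p = 0.0488), and no longer past 0.05 with any 1 of the WT/WT replicates (0.0779 to 0.165), WT/slow replicate 3 (0.0631), slow/slow replicate 2 (0.141) or slow/slow replicate 3 (0.219) left out. Ino80d (ENSMUST00000133236, chr1:62958418-63091929, minus strand), which encodes a subunit of the INO80 chromatin remodelling complex, was at 31.6, 36.1 and 27.8 kb in WT/WT cells, 6.4, 7.0 and 6.8 kb in WT/slow, and 11.2, 13.4 and 10.5 kb in slow/slow. All 3 genotypes were apart with WT/slow the lowest, and both were lower than WT/WT (by 20.1 kb in slow/slow, limma adjusted p = 0.000381, and by 25.1 kb in WT/slow, adjusted p = 0.000193). Its progress was also smaller in slow/slow by 18.6 kb (limma adjusted p = 0.0153), which was not past 0.05 without WT/WT replicate 1 (0.0600) or WT/WT replicate 2 (0.0835), with the trend and robust options of eBayes (0.0966) or on the log2 scale (-0.937, adjusted p = 0.699). At 30 min Ino80d was at 2.5 kb in every WT/WT replicate and at 50.3, 53.2 and 52.3 kb in slow/slow, which were apart but did not pass the test (limma adjusted p = 0.0797).

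Chn2 (ENSMUST00000114403, chr6:54040039-54222550, plus strand), which encodes beta-chimaerin, was at 31.3, 33.3 and 32.7 kb in WT/WT cells, 41.0, 43.9 and 41.0 kb in WT/slow, and 25.4, 25.9 and 24.8 kb in slow/slow at 15 min. The genotypes were apart with WT/slow the highest, higher by 9.53 kb than WT/WT (limma adjusted p = 0.0117; 0.0654 without WT/WT replicate 1). Slow/slow was lower by 7.07 kb (limma adjusted p = 0.0327), and not past 0.05 with any 1 of the WT/WT or slow/slow replicates left out (0.0670 to 0.122). Erc2, an active-zone scaffold gene, was at 31.6, 35.5 and 30.5 kb in WT/WT cells, 2.9, 4.9 and 4.9 kb in WT/slow, and 36.8, 35.2 and 27.9 kb in slow/slow. Only WT/slow stood apart, lower by 28.3 kb than WT/WT (limma adjusted p = 0.00617, held with any 1 library left out). The lincRNA Gm26786 (ENSMUST00000180410, chr8:106237903-106425728, minus strand) was at 40.2, 37.6 and 13.7 kb in WT/WT cells, 15.4, 6.8 and 16.0 kb in WT/slow, and 5.3, 2.5 and 5.5 kb in slow/slow. Slow/slow was the lowest, by 26.1 kb below WT/WT (limma adjusted p = 0.00620, held with any 1 library left out), and its mean position was in exon 1.

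These differences depended on the scale of the test. On the log2 scale the slow/slow differences in boundary at 15 min of Ammecr1, Inpp5a, Crim1, Adam22, Umad1, Rasa3, Chn2 and Ino80d kept their direction but were not past 0.05 (limma adjusted p from 0.123 to 0.639). The same held for the WT/slow differences of Ammecr1, Rasa3, Chn2 and Ino80d (limma adjusted p from 0.0571 to 0.754). Those of Gm26786 in slow/slow (limma adjusted p = 0.00752) and of Erc2 in WT/slow (adjusted p = 0.000865) still passed. In Adam22, Gm26786, Chn2, Cask and Chchd6, progress in slow/slow minus that in WT/WT was not past the test, but passed with 1 library left out. These were WT/slow replicate 2 for Adam22 (-26.5 kb, limma adjusted p = 0.0182), WT/WT replicate 3 for Gm26786 (-36.03 kb, adjusted p = 0.000293), WT/slow replicate 3 for Chn2 (-9.23 kb, adjusted p = 0.0133) and Cask (22.2 kb, adjusted p = 0.00870), and WT/slow replicate 1 for Chchd6 (22.3 kb, adjusted p = 0.00144).

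**Figure D4:**
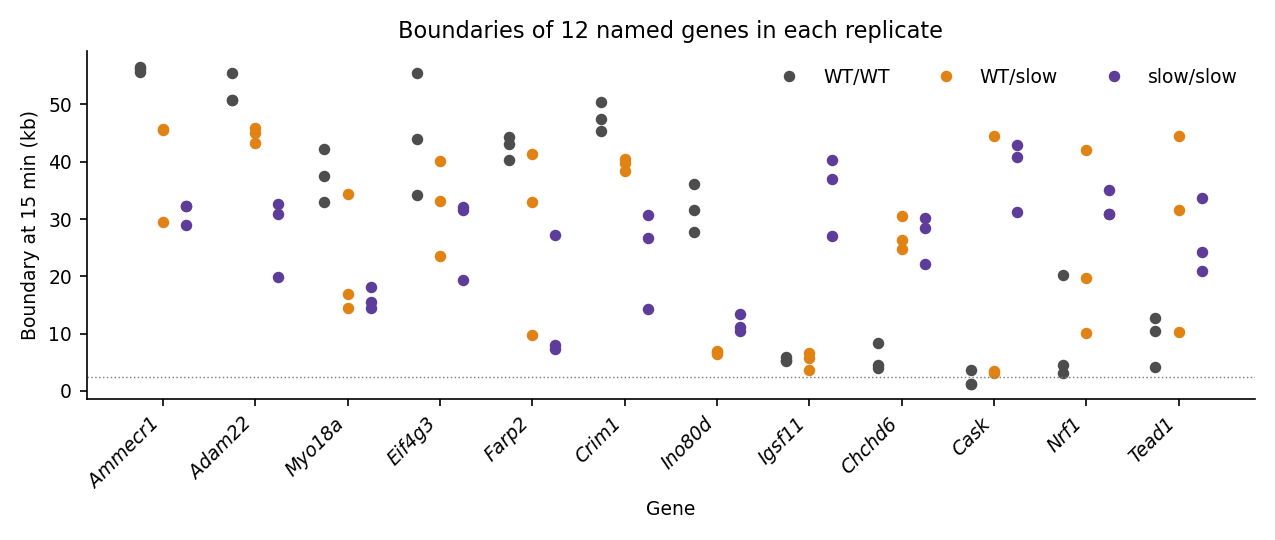
Boundary at 15 min (kb) in each replicate (points) of 12 named genes, with a dotted line at 2.5 kb. The WT/WT points of Ammecr1 lie between 55.7 and 56.6 kb and its slow/slow points between 29.0 and 32.2 kb, and those of Igsf11 between 5.3 and 6.0 kb and between 27.1 and 40.3 kb.

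The largest falls and rises in progress between WT/WT and slow/slow were also named by rule, whether or not they passed a test. They were ranked only among members away from 2.5 kb in all 18 samples whose 15-min values were apart on that side. Crim1 and Adam22, described above, and Igsf11, Chchd6 and Cask, described below, were named by the same rule. Cask was also named for a short WT/WT boundary, which favours a higher slow/slow value. That slow/slow and WT/WT did not overlap at 15 min thus follows from the rule in each. Myo18a, which encodes an unconventional myosin, Eif4g3, which encodes a translation initiation scaffold, and Farp2 differed in progress by -28.8, -28.7 and -26.7 kb. None was past the test (limma adjusted p = 0.283, 0.367 and 0.404). At 15 min Farp2 was at 43.1, 44.3 and 40.3 kb in WT/WT cells, 32.9, 9.7 and 41.4 kb in WT/slow, and 8.1, 7.4 and 27.3 kb in slow/slow, with WT/WT above slow/slow throughout. Nrf1 and Tead1, both transcription factor genes, had more progress in slow/slow by 21.9 and 18.8 kb, again not past the test (limma adjusted p = 0.353 and 0.420).

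Igsf11 (chr16:38902316-39027159, plus strand), which encodes an immunoglobulin-type adhesion protein, went the other way. At 15 min it was at 6.0, 5.3 and 5.4 kb in WT/WT cells, 5.7, 6.7 and 3.6 kb in WT/slow, and 37.0, 40.3 and 27.1 kb in slow/slow. Slow/slow stood alone above the others, by 29.2 kb over WT/WT (limma adjusted p = 0.000247, held with any 1 library left out). Its progress was greater in slow/slow than in WT/WT by 24.8 kb (limma adjusted p = 0.0180). That was lost in 5 of the 9 cases with 1 library left out (0.0505 to 0.120). It was also not past 0.05 on the log2 scale (1.98, limma adjusted p = 0.199) or with the trend and robust options of eBayes (0.0564). Chchd6 (ENSMUST00000204970, chr6:89418347-89595604, minus strand), a gene of the mitochondrial cristae-organising complex, was at 8.4, 4.5 and 4.0 kb in WT/WT cells, 30.5, 24.8 and 26.4 kb in WT/slow, and 28.5, 30.2 and 22.2 kb in slow/slow. Both genotypes with the mutant allele were above WT/WT, by 21.6 kb in WT/slow (limma adjusted p = 0.0122; 0.0504 without WT/WT replicate 2) and by 21.3 kb in slow/slow (adjusted p = 0.00620, held with any 1 library left out). Cask (ENSMUST00000132240, chrX:13714731-13851367, minus strand), a synaptic scaffold gene, was at 1.3, 3.6 and 1.3 kb in WT/WT cells, 3.4, 3.1 and 44.5 kb in WT/slow, and 40.8, 42.9 and 31.3 kb in slow/slow. Slow/slow was higher by 36.3 kb than WT/WT (limma adjusted p = 0.0126), but not past 0.05 without WT/WT replicate 1 (0.0517) or slow/slow replicate 2 (0.0734).

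Further members came from the smallest p for more progress in slow/slow, a choice that favours higher slow/slow values at 15 min. Zfp652 (ENSMUST00000133070, chr11:95713011-95835115, plus strand), a zinc finger gene, was at 2.5 kb in each WT/WT replicate, 2.5, 2.9 and 2.5 kb in WT/slow, and 32.5, 34.8 and 33.9 kb in slow/slow. At 5 min its WT/WT boundaries were 11.3, 20.6 and 14.8 kb. The test of progress in WT/WT was passed (-13.1 kb, limma adjusted p = 0.00205), but since 2.5 kb may not be a measured distance this is not read as a move of the front. Its boundary in slow/slow rose (22.7 kb, limma adjusted p = 9.38e-05). Cep83, a gene of the centriole appendages, and Neo1, which encodes the receptor neogenin, stood at 34.9, 37.2 and 45.4 kb and at 38.0, 32 and 28.7 kb in slow/slow at 15 min, with no value over 3.1 kb in the other genotypes. Their change from 5 to 15 min in WT/WT was not past the test (-9.7 and -11.4 kb, limma adjusted p = 0.0924 and 0.0638). Their slow/slow boundaries were higher than those of WT/WT by 36.7 and 30.4 kb (limma adjusted p = 1.84e-05 and 0.000127). Kif4, a chromokinesin gene, was at 2.5 kb in each WT/WT replicate, at 35.1, 25.6 and 27.6 kb in WT/slow, and at 32.9, 33.9 and 29.1 kb in slow/slow. Ankrd28, a protein phosphatase subunit gene, was at 3.3, 2.5 and 2.5 kb in WT/WT cells, 21, 28.0 and 21.6 kb in WT/slow, and 36.9, 35.4 and 35.0 kb in slow/slow. In Kif4 and Ankrd28 both genotypes with the mutant allele lay above WT/WT, by 29.5 and 33.0 kb in slow/slow (limma adjusted p = 5.46e-05 and 2.41e-05) and by 26.9 and 20.8 kb in WT/slow (adjusted p = 0.000338 and 0.00194). The 15-min differences of these 5 genes held with any 1 library left out.

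At the short end, Slc22a27 (chr19:7864388-7966027, minus strand), of the organic anion transporter family, was at 1.3, 1.3 and 1.9 kb in WT/WT cells, 1.3, 1.7 and 1.3 kb in WT/slow, and 1.3 kb in each slow/slow replicate at 15 min. The genotypes overlapped. Mtm1 (ENSMUST00000171933, chrX:71210767-71315295, plus strand), which encodes a phosphoinositide phosphatase, was at 8.2, 17.9 and 12.3 kb in slow/slow at 5 min and at 4.0, 2.9 and 6.2 kb at 15 min. It was the only member to fall in slow/slow on the kb scale (-8.43 kb, limma adjusted p = 0.0355). The fall was not past 0.05 on the log2 scale (-1.55, adjusted p = 0.141), on which 9 members fell, or without WT/slow replicate 3 (0.0516), slow/slow replicate 2 (0.307) or slow/slow replicate 3 (0.0916).

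Members were also read in lists of genes by role, with the longest member of each gene. Over all 2127 genes with a member, 1508 were tested, of which 86 rose and 4 fell from 5 to 15 min in WT/WT, 133 rose and 5 fell in WT/slow, and 80 rose and 1 fell in slow/slow (limma). At 15 min 49 were higher and 34 lower in slow/slow than in WT/WT, and 30 higher and 15 lower in WT/slow. Their median progress, with boundaries of 2.5 kb kept as in that fit, was 2.63 kb in WT/WT, 6.85 kb in WT/slow and 9.27 kb in slow/slow. Over boundaries other than 2.5 kb, the mean of their sample medians went from 13.0 kb at 5 min to 21.5 kb at 15 min in WT/WT and from 10.2 to 26.4 kb in slow/slow. In the fit with 1 transcript per gene over the whole table, progress passed in 6.50% of members and 9.98% of all in WT/WT (limma). These shares were 8.86% and 11.7% in WT/slow, and 6.16% and 11.9% in slow/slow, both directions together. For the 15-min boundary they were 6.08% and 7.78% in slow/slow, and 2.87% and 2.55% in WT/slow. No list was tested against other genes, so the genes named are single calls and not results about a list.

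Of 43 chromatin regulators tested, Ehmt1, a histone lysine methyltransferase gene, and Ino80 rose in WT/WT, Hdac9, Ino80 and Phf20 in WT/slow, and Ehmt1 and Kdm2b in slow/slow (limma). Of these rises only that of Ino80 in WT/slow held with any 1 library left out. Those of Ehmt1 were not past 0.05 without WT/WT replicate 1 (0.05001) or replicate 3 (0.0688) in WT/WT and with any 1 of the slow/slow replicates left out (0.0847 to 0.125) in slow/slow, and that of Phf20 was lost in 6 of the 9 cases (0.0759 to 0.196). Ehmt1 was at 37.5, 36.3 and 39.5 kb in WT/WT cells, 12.5, 28.3 and 36.2 kb in WT/slow, and 30.1, 32.7 and 27.8 kb in slow/slow at 15 min. Its WT/WT values were all above its slow/slow values, without passing the test (-7.57 kb, limma adjusted p = 0.435). At 15 min Bcor was lower in slow/slow than in WT/WT, which held with any 1 library left out, and Kdm2b was higher, which was lost in 3 of the 9 cases. Against WT/WT, Asxl3 and Hdac9 were higher and Bcor lower in WT/slow, and all 3 held. The share of the list at 2.5 kb at 15 min was 24.1%, 49.1% and 20.4% in WT/WT, 25.5%, 23.1% and 15.4% in WT/slow, and 10.9%, 13.2% and 11.3% in slow/slow, while over all genes with a member it was 29.8%, 43.4% and 25.6% in WT/WT and 21.6%, 23.0% and 22.6% in slow/slow. In both, the slow/slow samples lay below the WT/WT samples.

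Of 40 ubiquitin ligases and deubiquitinases tested, Cblb, Herc2, Peli2 and Sh3rf1 rose in WT/WT, Cblb, Herc2, Otud7a, Peli2 and Usp7 in WT/slow, and Herc2, Peli2 and Rnf165 in slow/slow (limma). Only the rises of Peli2 in WT/WT and of Cblb, Herc2 and Peli2 in WT/slow held with any 1 library left out. That of Herc2 in WT/WT was lost in 6 of the 9 cases (adjusted p up to 0.239) and that of Cblb in WT/WT in 2 (up to 0.141). None passed the test against WT/WT at 15 min in slow/slow or in WT/slow (0 higher and 0 lower in limma for each). That does not show that they were equal. Peli2 was at 56.9, 51.6 and 45.6 kb in WT/WT cells, 52.1, 49.9 and 48.1 kb in WT/slow, and 46.3, 43.6 and 24.9 kb in slow/slow at 15 min. WT/WT and slow/slow overlapped, and progress was 36.1, 34.4 and 27.7 kb in the genotypes with 0, 1 and 2 mutant alleles (limma adjusted p = 0.000582, 0.000816 and 0.00481), the last not past 0.05 without slow/slow replicate 2 (0.0581). Median progress in the list, again with 2.5 kb kept, was 4.6 kb in WT/WT, 12.03 kb in WT/slow and 18.7 kb in slow/slow, and at 15 min WT/WT replicate 2 had 60% of the list at 2.5 kb against 19.6% in each other WT/WT replicate. Over boundaries other than 2.5 kb, the mean of the sample medians went from 14.95 to 34.7 kb in WT/WT and from 10.9 to 31.7 kb in slow/slow.

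Of 76 kinase, phosphatase and phosphodiesterase genes, Bmpr2, Inpp5a and Ulk4 rose in WT/WT, Camk2d, Inpp5a, Ksr2, Mark1, Nek1, Pak3, Pde7b, Ssh2, Tgfbr3 and Ulk4 in WT/slow, and Bmpr2, Camk2d, Inpp5a, Ror2 and Ulk4 in slow/slow (limma). The rises of Inpp5a in each genotype and of Camk2d in the 2 others held with any 1 library left out, and no other did. At 15 min Camk2d, Pak3, Pik3c2a, Pik3cb and Ror2 were higher and Inpp5a and Prkag2 lower in slow/slow than in WT/WT, of which only the differences of Ror2 and Inpp5a held in the same way. In WT/slow, Camk2d and Pak3 were higher than in WT/WT, which held, and Fgfr2 was lower, which was lost in 4 of the 9 cases.

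Of 70 synaptic, axon guidance and adhesion genes tested, Il1rap, Magi1, Nsf, Plxna2, Sema6a and Shank2 rose in WT/WT, Amph, Cacna2d1, Grin3a, Il1rap, Nfasc, Nsf, Plxna2 and Slit2 in WT/slow, and Amph, Il1rap, Nrg1, Nsf and Shank2 in slow/slow (limma). The rises of Nsf, Sema6a and Shank2 in WT/WT and of Amph and Il1rap in WT/slow held with any 1 library left out, and no other did. Nsf, which encodes the ATPase that takes SNARE complexes apart, was at 41.4, 48.3 and 42.7 kb in WT/WT cells, 29.2, 36.6 and 45.2 kb in WT/slow, and 34.0, 35.5 and 29.3 kb in slow/slow at 15 min. Its WT/WT values lay above its slow/slow values, but the difference of -11.2 kb was not past the test (limma adjusted p = 0.152). Nectin3 and Nrg1 were higher and Cacna1b and Nrp2 lower in slow/slow than in WT/WT at 15 min, and each was lost in 3 or more of the 9 cases with 1 library left out. In WT/slow, Erc2 and Shank2 were lower, which held, Nrp2 was lower, which was lost in 1 case, and Ntn4 was higher, which was lost in 8. The list's share at 2.5 kb at 15 min was 23.4%, 38.1% and 22.1% in WT/WT and 24.7%, 23.0% and 28.3% in slow/slow, which overlapped.

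In the smaller lists, Eif4g3, Mettl15 and Srrm4 of 34 RNA processing and RNA-binding genes rose in WT/WT, Mettl15 and Nova1 in WT/slow and Cpeb1 in slow/slow, and Cpeb1 and Qk were higher and Srrm4 lower in slow/slow than in WT/WT at 15 min (limma). Of these only the 15-min difference of Cpeb1 held with any 1 library left out, while the WT/WT rise of Eif4g3 was lost in 7 of the 9 cases (adjusted p up to 0.2503) and that of Mettl15 in 2 (up to 0.162). Of 16 genes of DNA replication, repair and the cell cycle, Pms1 rose in WT/WT and Cdc14a in WT/slow (limma). Pms1, a mismatch repair gene, was at 43.6, 49 and 36.2 kb in WT/WT cells, 6.4, 48.3 and 36.4 kb in WT/slow, and 29.6, 32.1 and 28.0 kb in slow/slow at 15 min, with slow/slow below WT/WT. Its rise was not past 0.05 with any 1 of the WT/WT replicates left out (0.0566 to 0.0902), and that of Cdc14a was lost in 2 of the 9 cases. Of 53 pluripotency, developmental transcription and signalling genes, Lrp2 and Notch2 rose in WT/WT, Gli3 and Runx1t1 in WT/slow and Notch2 in slow/slow, and Runx2 was lower in slow/slow than in WT/WT at 15 min (limma). None of these held with every library left out in turn, and that of Lrp2 was lost in 5 of the 9 cases (adjusted p up to 0.254).

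Members were then set apart by the number of CpG pairs in the 300 bases at the start site (250 before it and 50 from it), a measure chosen after the values were seen. The lowest, middle and highest groups by tertile held 1661, 1522 and 1470 members, with limits at 9 and 26 pairs. At 5 min the lowest group had 40.02% of boundaries at 2.5 kb on average over the 9 samples, the middle group 16.4% and the highest 10.9%. The highest group was below the lowest in all 9 samples (-29.1 points, exact sign-flip permutation p = 0.0039, the smallest possible for 9 samples). At 15 min the shares were 36.6%, 22.9% and 19.5%, with the highest group lower in 8 of 9 samples (-17.1 points, exact sign-flip permutation p = 0.0078), and this did not pass 0.05 without replicate 1 (-16.3 points, exact p = 0.0625) or replicate 3 (-14.8 points, exact p = 0.0625). The median boundary other than 2.5 kb at 15 min was 14.7 kb in the lowest and 29.9 kb in the highest group (15.2 kb, exact sign-flip permutation p = 0.0039). At 30 min the order of the shares was the opposite, with 52.2% in the lowest and 76.5% in the highest group (24.3 points, exact sign-flip permutation p = 0.0039).

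Genotypes were also compared within each group of CpG pairs, and whether their distance differed between groups was not tested. In the highest group at 15 min, shares at 2.5 kb were 22.1%, 44.7% and 15.8% in WT/WT, 28.3%, 20.3% and 15.5% in WT/slow, and 8.45%, 10.3% and 9.99% in slow/slow. Upper quartiles of that group were 44.4, 44.2 and 43.1 kb in WT/WT cells, 39.3, 40 and 43.5 kb in WT/slow, and 35.2, 34.8 and 31.4 kb in slow/slow. In both measures slow/slow lay below WT/WT in every sample, by -17.9 points in the share and by -10.1 kb in the upper quartile (exact permutation p = 0.1 for each). Without WT/WT replicate 2 these were -9.37 points and -9.96 kb, still without overlap. The middle group had a difference of -9.07 kb in the upper quartile, without overlap (exact permutation p = 0.1). In the lowest group the upper quartiles of slow/slow and WT/WT overlapped, with means of 26.8 and 29.3 kb (exact permutation p = 0.3). Boundaries of 40 kb or more in the lowest group made up 7.78%, 7.80% and 7.33% of calls in WT/WT and 2.47%, 2.92% and 3.09% in slow/slow, without overlap (-4.81 points, exact permutation p = 0.1).

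**Figure D5:**
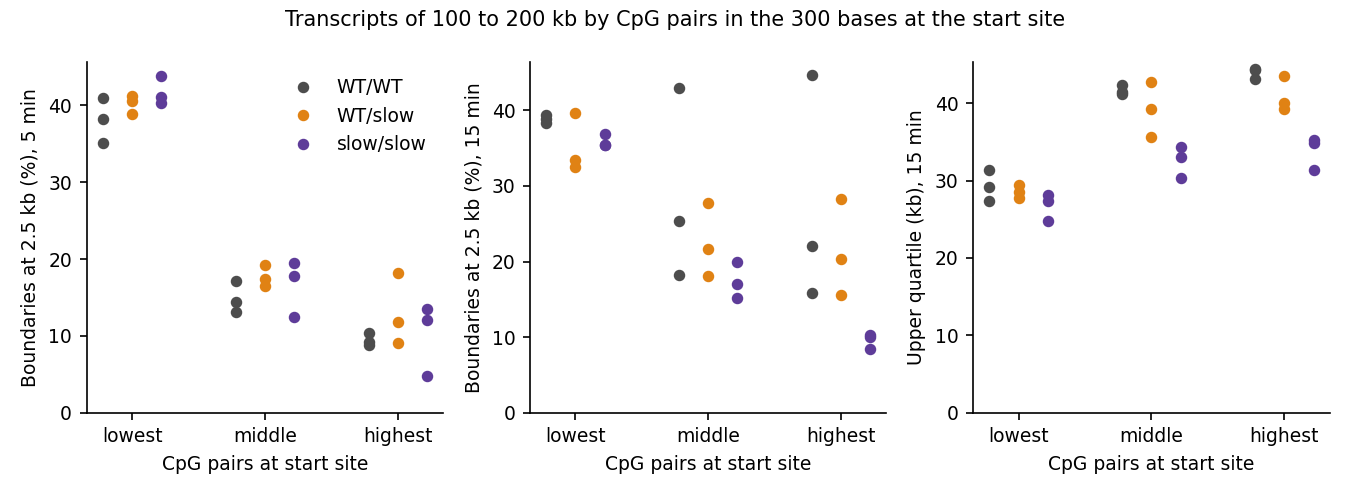
Share of boundaries at 2.5 kb at 5 and 15 min (%) and upper quartile of the other boundaries at 15 min (kb) in each sample (points), for members in the lowest, middle and highest groups of CpG pairs at the start site. In the highest group at 15 min the slow/slow upper quartiles lie between 31.4 and 35.2 kb and those of WT/WT between 43.1 and 44.4 kb.

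Members in the highest group by number of exons had a longer median boundary at 15 min than those in the lowest group (27.2 against 21.7 kb, higher in all 9 samples, exact sign-flip permutation p = 0.0039) and a smaller share at 2.5 kb at 5 min (18.6% against 26.9%, exact p = 0.0039). Their share did not differ past 0.05 at 15 min (-2.57 points, exact sign-flip permutation p = 0.219) and was higher at 30 min (71.8% against 60.7%, in all 9 samples, exact p = 0.0039). Groups by length of the first intron and by GC of the first 60 kb were also formed after the values were seen. For the first intron, 3 of 6 differences between the highest and lowest groups passed 0.05, in the share at 5 min (3.30 points, exact sign-flip permutation p = 0.0312) and 30 min (-4.26 points, exact p = 0.0078) and in the median at 15 min (-2.29 kb, exact p = 0.0195). For GC 1 of 6 passed, in the share at 30 min (-2.48 points, exact sign-flip permutation p = 0.0195). None of these 4 held with each replicate number left out in turn. Of the boundaries other than 2.5 kb, most lay in intron 1, with 67.3% in WT/WT, 68.2% in WT/slow and 69.9% in slow/slow at 5 min, 57.3%, 55.5% and 57.3% at 15 min, and 74.1%, 73.7% and 68.9% at 30 min. From 0.853% to 1.37% of them lay in an exon, by group.

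The members were compared with transcripts of the neighbouring lengths within each sample. Against the 3109 transcripts of 200 kb or more, members had a smaller share at 2.5 kb at 5 min in all 9 samples (22.1% against 32.8%, -10.6 points, exact sign-flip permutation p = 0.0039). By 15 min the difference was -4.24 points (exact sign-flip permutation p = 0.0352), but -0.697 points with 1 transcript per gene (exact p = 0.613), -5.67 without replicate 1 (exact p = 0.0625), -4.48 without replicate 2 (exact p = 0.0938) and -2.56 without replicate 3 (exact p = 0.281). At 30 min it was 3.96 points (exact sign-flip permutation p = 0.0117), and it did not pass 0.05 without replicate 1 (3.75 points, exact p = 0.0625) or replicate 3 (3.92 points, exact p = 0.0938). The median boundary of the members was longer by 1.17 kb at 5 min and by 3.67 kb at 15 min, in all 9 samples (exact sign-flip permutation p = 0.0039 for each), and shorter at 30 min (-1.66 kb, exact p = 0.0078; without replicate 1 -1.43 kb, and without replicate 3 -1.23 kb, exact p = 0.0625 for each). Against the 6032 transcripts of 60 to 100 kb, the share was higher by 2.01 points at 5 min (exact sign-flip permutation p = 0.0156), though not past 0.05 without replicate 2 (1.14 points, exact p = 0.125) or replicate 3 (2.13 points, exact p = 0.0938), and no difference in the median passed 0.05. Just outside and inside the lower limit were transcripts of Prep at 99996 bases and Scel at 100006 bases, and at the upper limit those of Pcbp3 at 199932 bases and Slit2 at 200004 bases.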

How the data were processed

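Reads were mapped by the authors with Bowtie2 2.2.9. They deposited, for each transcript and sample, the boundary of the transcription wave as a distance in bases (GRCm38, mm10). The deposited distances were used without rescaling and are printed in kb. They are not counts, so the depth is unknown. Transcripts were matched by identifier to GENCODE M21 on GRCm38. Python 3.11.15, pandas 2.3.3, numpy 2.4.6 and matplotlib 3.10.9 gave the per-sample values, exact two-sided permutation tests over the 3 biological replicates of a group, and exact two-sided sign-flip tests over the 9 samples of a time. R 4.3.3 with limma 3.58.1 and the data.table package (1.17.8) fitted transcripts with a call in every sample of the groups compared, with p adjusted by Benjamini-Hochberg over all transcripts tested and a threshold of 0.05. Not every such transcript was tested. Of the 3413 members called in all 18 samples at 5 and 15 min, 3399 were tested, and 14 members were at 2.5 kb in all 18. At 30 min 2855 members were tested, while 3163 had a call in all 27 samples. Named genes, with their longest member, were the 5 largest falls and 5 largest rises in slow/slow progress among members away from 2.5 kb in all 18 samples whose 15-min values of slow/slow and WT/WT were apart on that side, the 3 longest and 3 shortest WT/WT boundaries at 15 min, the 3 least variable genes of each list, and the 5 smallest p in each direction for the difference in progress. Members and lists were chosen with earlier results of these data known. The alternatives tried were 1 transcript per gene or start site, protein-coding transcripts, lengths of 150 to 200 kb, members called in all samples, the mean over members, boundaries of 2.5 kb set to missing, the log2 scale, a looser call filter, the trend and robust options of eBayes, a replicate block and leaving out each replicate.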

Additional observations from a re-analysis of the deposited data

Results flagged for a closer look

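In the limma test of the difference between genotypes in progress from 5 to 15 min, members passed in both directions. Slow/slow had more progress than WT/WT in 40 members (1.18%; 2.93% of all transcripts tested) and less in 10 (0.294%; 0.207%). WT/slow had more progress than WT/WT in 14 members (0.412%; 0.492%) and less in 4 (0.118%; 0.0691%), and slow/slow had more than WT/slow in 14 (0.412%; 1.26%) and less in 3 (0.0883%; 0.126%). The upper quartile of boundaries other than 2.5 kb differed between slow/slow and WT/WT by -4.5 kb at 5 min, by -8.03 kb at 15 min and by 9.12 kb at 30 min, with every slow/slow sample below every WT/WT sample at the first 2 times and above at the last. The difference between the times was not tested. As above, the 30-min values are not read as fronts that had gone farther in slow/slow.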

How the results depend on the processing

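In all, 130 results were computed again under 1175 alternatives. Of those for the main comparisons 369 kept direction and side of the threshold, 10 were weaker, 2 stronger, 61 moved as counts and 17 reversed. For measures chosen after seeing the data 344 kept them, 14 were weaker, 9 stronger and 5 reversed, and for genes named by rule 325 kept them, 11 were weaker, 7 stronger and 1 reversed. The upper quartile, 90th percentile and share from 40 kb, the medians of the 495 members and the groups by CpG, exons, first intron and GC, with their alternatives, were chosen after seeing the data. The cause was not tested where a result changed. With protein-coding transcripts only, the difference of WT/slow from WT/WT in the share at 2.5 kb at 30 min was -0.166 points. With the mean over members in place of the median, differences from WT/WT at 15 min were -0.800 kb for slow/slow and -0.0267 kb for WT/slow. With members called in all 27 samples, the median of WT/slow minus WT/WT at 15 min was -0.0333 kb, the share minus that of 60 to 100 kb at 30 min was -2.004 points (exact p = 0.0430, now past 0.05), and the median minus that of 60 to 100 kb at 15 min was -0.156 kb. With 1 transcript per gene, the share minus that of 200 kb or more at 15 min was -0.697 points, the median minus that of 60 to 100 kb was -0.328 kb at 5 min (exact p = 0.0469, now past 0.05) and -0.0389 kb at 15 min, and the median of the highest minus the lowest group by exons at 30 min was -1.64 kb (exact p = 0.00781, now past 0.05). On the log2 scale the difference in progress of Ammecr1 between slow/slow and WT/WT was 0.138.

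Counts past the limma threshold, both directions together, changed as follows, with the share of the members and then of all transcripts tested. With boundaries of 2.5 kb set to missing, progress passed in 560 members in WT/WT (28%; 20.7%), 610 in WT/slow (30.5%; 25.1%) and 539 in slow/slow (27%; 25.1%), the difference in progress in 15 for slow/slow minus WT/WT (0.751%; 1.52%) and 0 for slow/slow minus WT/slow (0%; 0.0120%), and the 30-min boundary in 12 (3.27%; 2.79%). With 1 transcript per gene over the whole table, where fewer transcripts were tested, progress passed in 77 (6.50%; 9.98%), 105 (8.86%; 11.7%) and 73 (6.16%; 11.9%), the difference in progress in 18 for slow/slow minus WT/WT (1.52%; 3.20%), 6 for WT/slow minus WT/WT (0.506%; 0.612%) and 8 for slow/slow minus WT/slow (0.675%; 1.25%), the slow/slow boundary in 1 at 5 min (0.0844%; 0.225%), 72 at 15 min (6.08%; 7.78%) and 4 at 30 min (0.389%; 0.615%), and the WT/slow boundary in 1 at 5 min (0.0844%; 0.0999%) and 34 at 15 min (2.87%; 2.55%). With a call in at least 2 of 3 samples of each group, progress in slow/slow passed in 315 (7.78%; 14.8%), the difference in progress of slow/slow minus WT/slow in 34 (0.839%; 1.53%) and the slow/slow boundary at 5 min in 16 (0.395%; 0.840%). With the trend and robust options of eBayes, progress in slow/slow passed in 113 (3.32%; 5.59%), the difference in progress in 24 for slow/slow minus WT/WT (0.706%; 2.05%) and 1 for WT/slow minus WT/WT (0.0294%; 0.0163%), the WT/slow boundary at 5 min in 3 (0.0883%; 0.163%) and the slow/slow boundary at 30 min in 1 (0.0350%; 0.0563%). On the log2 scale the difference in progress of WT/slow minus WT/WT passed in 11 (0.324%; 0.577%), and the slow/slow boundary in 13 at 5 min (0.382%; 0.301%) and 67 at 30 min (2.35%; 1.54%).

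With each replicate left out in turn, WT/slow minus WT/WT ran from -1.48 to 3.08 points in the share at 30 min, from -2.55 to 0.95 kb in the median at 5 min and from -1.95 to 3.70 kb at 15 min. Over all boundaries, the median at 5 min ran from -3.52 to 0.0333 kb for slow/slow and from -3.05 to 0.5 kb for WT/slow. The upper quartile of WT/slow at 5 min ran from -2.25 to 0.6 kb and its share from 40 kb at 15 min from -3.91 to 0.424 points. Against 60 to 100 kb the share ran from 1.14 to 2.75 points at 5 min and from -0.169 to 0.684 at 15 min, and the median from -0.55 to 0.908 kb at 15 min and from -0.45 to 0.117 kb at 30 min. Against 200 kb or more the share ran from -5.67 to -2.56 points at 15 min and from 3.75 to 4.20 at 30 min, and the median from -2.33 to -1.23 kb at 30 min. The share of the highest minus the lowest CpG group at 15 min ran from -20.4 to -14.8 points. The limma counts, which show stability only, ran from 163 to 412 for progress in WT/slow, from 65 to 342 in slow/slow, from 28 to 98 for the difference in progress of slow/slow minus WT/WT, from 9 to 45 for WT/slow minus WT/WT and from 16 to 33 for slow/slow minus WT/slow. For the slow/slow boundary they ran from 6 to 15 at 5 min, 111 to 282 at 15 min and 36 to 92 at 30 min, and for WT/slow from 6 to 14 at 5 min and 66 to 152 at 15 min. Same-numbered replicates of different genotypes had correlations of their residuals from 0.0206 to 0.225. All 3 were over 0.1 only for WT/slow with slow/slow at 15 min (0.225, 0.168 and 0.180), and at 5 min 2 of the same 3 were under it (0.151, 0.0983 and 0.0961). At 15 min alone these genotypes were set side by side without a test. The only test between them, the difference in progress, takes in both times, so the samples were taken to share only a number. With the block it passed in 17 (0.5%; 1.23%) and 3 (0.0883%; 0.134%) members, against 14 and 3. With the replicate number as a block, all results kept their direction and side of the threshold except that of Chchd6. It passed for the difference in progress (22.3 kb, limma adjusted p = 0.0328). No count of members changed by more than 1.5 times, the limit taken for a move. The slow/slow boundary at 30 min went from 42 (1.47%; 1.13%) to 28 (0.981%; 0.592%). Progress in WT/slow went from 320 (9.41%; 11.4%) to 389 (11.4%; 12.3%).

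For the first intron, highest minus lowest group, the share at 5 min was 2.68 points with protein-coding transcripts (exact p = 0.0508, no longer past 0.05), the share at 15 min 2.74 points with 1 transcript per gene (exact p = 0.0273, now past 0.05) and the median at 15 min -1.46 kb with protein-coding transcripts (exact p = 0.133, no longer past 0.05). For GC, 1 transcript per gene gave -4.48 points in the share at 15 min (exact p = 0.0273, now past 0.05), -2.32 points at 30 min (exact p = 0.0508, no longer past 0.05) and -0.994 kb in the median at 5 min (exact p = 0.0391, now past 0.05). Protein-coding transcripts gave medians of -1.07 kb at 5 min, -3.97 kb at 15 min and 0.561 kb at 30 min (exact p = 0.0234, 0.0039 and 0.0195, all now past 0.05), and 3.70 points in the share at 5 min (exact p = 0.0352, now past 0.05). With a replicate number left out in turn, the share for the first intron ran from 2.41 to 4.04 points at 5 min, from -0.124 to 2.75 at 15 min and from -5.68 to -3.43 at 30 min, and the median from -0.875 to -0.05 kb at 5 min and from -2.98 to -1.59 kb at 15 min. The 5-min median of -0.875 kb, without replicate 1, was now past 0.05 (exact sign-flip permutation p = 0.03125). For GC the share ran from -0.179 to 3.04 points at 5 min and from -3.17 to -1.54 at 30 min, and the median from -0.0583 to 0.183 kb at 30 min.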
